A study of Arabidopsis thaliana with 6 samples.

Results

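The genes described are 31 of the 1336 genes that the authors listed as changed in sams3 seedlings, chosen because their deposited descriptions name a domain of cell wall enzymes or expansins. A gene was taken if its description held the glycoside hydrolase core (InterPro IPR017853), the pectin lyase fold (IPR011050), the pectinesterase inhibitor domain (IPR006501), the concanavalin-like fold of lectins and glucanases (IPR008985) or the expansin domain (IPR007112). Of 39 listed genes with such a domain, 7 with a protein kinase fold as well (IPR011009) were left out, as was AT2G44460 (BGLU28), a beta-glucosidase of the sulphur deficiency response.

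RNA was sequenced from 2 libraries of sams3, which carries a mutation in S-adenosylmethionine synthetase 3, and from 2 libraries of the transgenic L119 line, which stood in for the wild type and which the labels also name as the background of sams3. Both came from whole seedlings 15 days old, raised at 22 °C on agar plates with sucrose at 20 g/L and light for 23 h a day. The labels give neither the transgene in L119 nor the kind of mutation in sams3, nor whether the libraries of a genotype were grown apart, so the spread behind the authors' p-values may be technical. The values used are the authors' log2 fold changes, sams3 over L119, with their p-values; a gene entered the lists with a change of at least 2-fold and a p-value under 0.0001, and no values per library were used. SAMS3 itself stands in neither list (0 rows), so the labels cannot be checked against its transcript.

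The wall of a growing plant cell is a network of cellulose tied by xyloglucan and embedded in pectin. Expansins loosen this network without cutting it, and xyloglucan endotransglucosylase/hydrolases (XTHs) cut and rejoin xyloglucan chains. Pectinesterases take methyl groups off pectin, after which polygalacturonases and pectate lyases can cleave it. The glycoside hydrolase core is a wide fold, shared by enzymes that trim wall sugars, by beta-glucosidases that release stored hormones, lignin precursors and defence compounds, by chitinases and glucanases that attack fungal walls, and by amylases that degrade starch.

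More members were higher than lower in sams3, as among listed genes at large. By the authors' deposited table, 22 of the 31 were higher and 9 lower, which makes 71.0% higher (exact Clopper-Pearson 95% interval 52.0 to 85.8%, counting error only), beside 66.9% higher and 33.1% lower over all 1336 listed genes. The share of higher members therefore lay near that background. Their sizes were also like those of the lists: in the authors' deposited table the median log2 was 1.52 over the higher members and 1.62 over all higher genes, and it was -1.33 over the lower members and -1.27 over all lower genes. A log2 of at least 2 in size was reached by 6 members (19.4%), all 6 higher and 0 lower, against 25.9% of all listed genes, 21.6% being higher ones and 4.34% lower ones. No test of the list was made, since presence in the lists is what chose the members.

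Direction was not spread evenly over the kinds of protein. All 13 members with the glycoside hydrolase core were higher, whereas the other 18 were 9 higher and 9 lower, or 50.0% higher. All 9 lower members belonged to 4 kinds: XTHs (3), polygalacturonases (3), expansins (2) and legume lectins (1). Each of these kinds also held at least 1 member that was higher. This division is a description of the listed genes and was not tested.

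**Figure D1:**
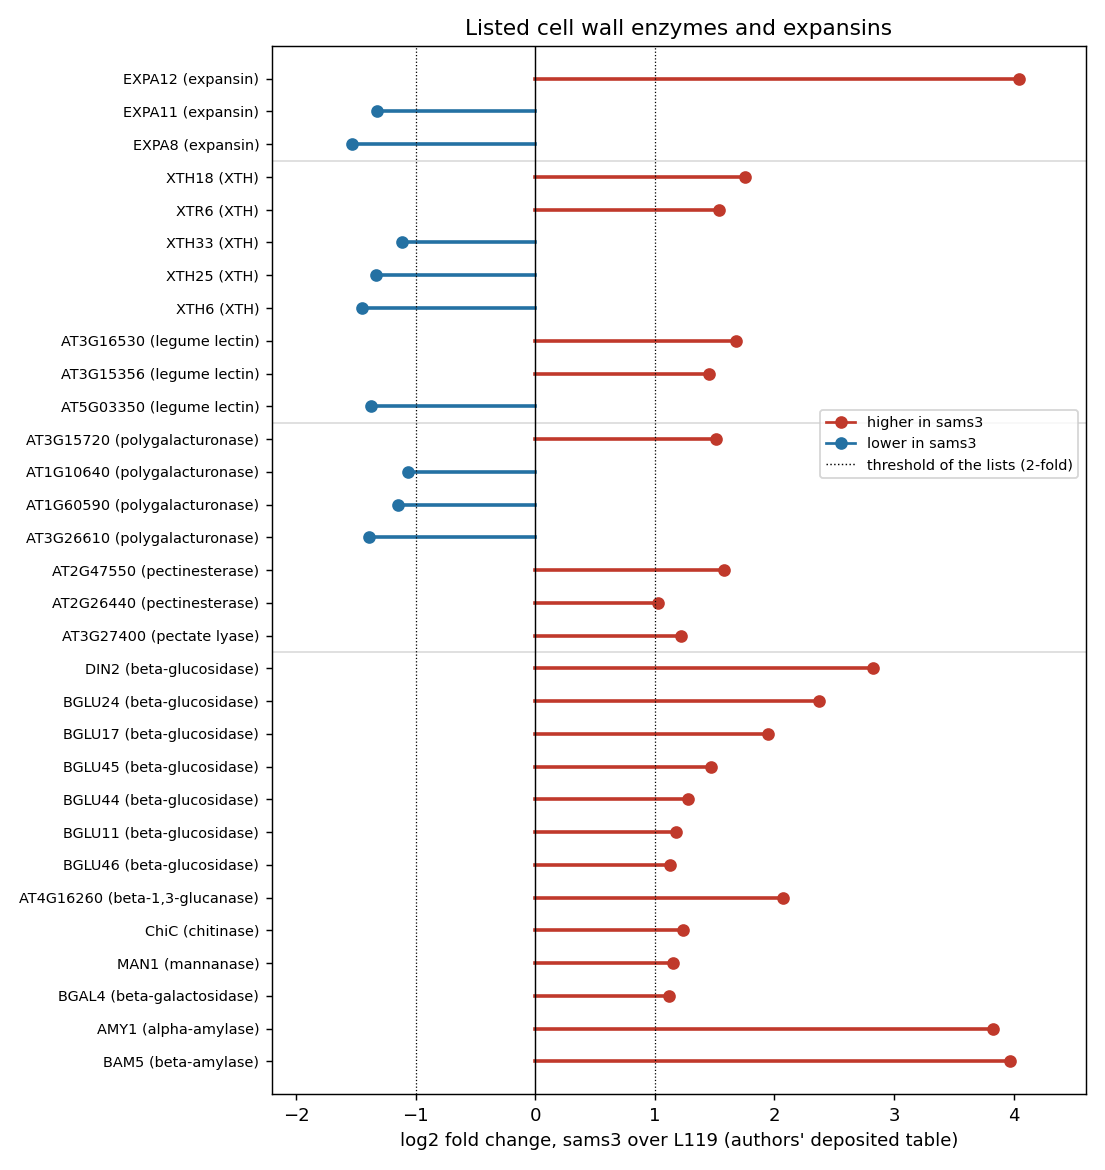
Log2 fold change, sams3 over L119, of each of the 31 members in the authors' deposited table, grouped by kind of protein, with dotted lines at the 2-fold threshold of the lists. The 13 glycoside hydrolase members at the foot all lie to the right of 0, and the 9 lower members are expansins, XTHs, a lectin and polygalacturonases between -1.06 and -1.53.

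Among expansins, 2 members fell and 1 rose. EXPA8 (AT2G40610) fell by 1.53 on the log2 scale in the authors' deposited table (p = 4.36e-93), a 2.89-fold lower level in sams3 than in L119. This was the largest fall of the 31 genes and the one with the smallest p-value among lower members, at place 25 of the 442 lower genes by p. For EXPA11 (AT1G20190) the authors' deposited table gives a log2 of -1.33 (p = 5.22e-49). Both are alpha-expansins, and the deposited descriptions tie both to wall loosening and to directed cell growth.

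EXPA12 (AT3G15370), another alpha-expansin, went the other way and had the largest rise of all members. Its log2 in the authors' deposited table was 4.04, a 16.5-fold higher level in sams3 than in L119. With 3.99e-13 in the authors' deposited table, its p-value stood only at place 585 of the 894 higher genes, while the fold stood at place 74. AMY1 had a similar log2, 3.82, with a p-value of 1.3e-192 in the authors' deposited table. Without expression levels, a low level of EXPA12 in L119 cannot be told apart from a large change. Its description places its expression in 1 plant structure, the root. In whole seedlings, a larger share of a tissue and more RNA per cell of that tissue cannot be told apart either.

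XTHs split by family member, 2 higher and 3 lower. XTH18 (AT4G30280) rose by a log2 of 1.76 (p = 6.59e-83) and XTR6, also named XTH23 (AT4G25810), by 1.54 (p = 3.04e-108) in the authors' deposited table. XTH6 (AT5G65730) was at -1.45 (p = 9.72e-80) and XTH25 (AT5G57550) at -1.33 (p = 2.72e-25) in the authors' deposited table. XTH33 (AT1G10550), which the description puts in the plasma membrane rather than in the wall, fell by 1.11 on the log2 scale in the authors' deposited table (p = 6.9e-16). No XTH reached a log2 of 2 in size in either direction.

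The same concanavalin-like fold is found in legume lectins, which bind sugars and cut nothing. Of the 3 lectins without a kinase domain, AT3G16530 rose by a log2 of 1.68 (p = 1.21e-109) and AT3G15356 by 1.45 (p = 3.21e-114) in the authors' deposited table. AT5G03350 fell by 1.37 on the log2 scale in the authors' deposited table (p = 1.36e-40). The descriptions link AT3G16530 to a response to chitin and AT3G15356 to defence against fungi. For AT5G03350 they give no process.

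Pectin enzymes went both ways, 4 higher and 3 lower, and the 3 that fell were all polygalacturonases. Of 4 polygalacturonases, 3 fell: AT3G26610 had a log2 of -1.39 (p = 2.08e-12), AT1G60590 of -1.14 (p = 1.86e-20) and AT1G10640 of -1.06 (p = 6.35e-20) in the authors' deposited table. AT3G26610 carries the synonym polygalacturonase involved in expansion (PGX1) in the reference gene table, and its description names the root as the 1 structure of expression. The polygalacturonase that rose, AT3G15720, had a log2 of 1.51 (p = 9.72e-13) in the authors' deposited table and is annotated as anchored to the plasma membrane, with a response to cyclopentenone among its processes.

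Both pectinesterases rose, AT2G47550 by a log2 of 1.58 (p = 1.53e-24) and AT2G26440 (PME12) by 1.02 (p = 3.11e-24) in the authors' deposited table. They are also the 2 members with the pectinesterase inhibitor domain, which in these proteins precedes the enzyme itself, so 0 members were inhibitors alone. AT3G27400, a pectate lyase, rose by a log2 of 1.22 in the authors' deposited table (p = 4.16e-20). PME12 was the higher member closest to the threshold of the lists and AT1G10640 the lower one, and genes just outside the threshold were not analysed here.

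Beta-glucosidases of glycoside hydrolase family 1 were the largest kind, with 7 members, all higher and with a median log2 of 1.47. In the authors' deposited table the rises were led by DIN2 (AT3G60140, also BGLU30) with a log2 of 2.82 (p = 7.03e-99), a gene known for induction by darkness and during leaf ageing. BGLU24 (AT5G28510) had a log2 of 2.38 in the authors' deposited table, though with a p-value of 5.67e-10, and BGLU17 (AT2G44480) one of 1.95 (p = 1.07e-31). BGLU45 (AT1G61810, log2 1.47), BGLU44 (AT3G18080, 1.28), BGLU11 (AT1G02850, 1.18) and BGLU46 (AT1G61820, 1.13) had smaller rises in the authors' deposited table, with p-values from 7.25e-33 to 1.87e-85. BGLU45 and BGLU46 act on glucosides of lignin precursors, and their descriptions name lignin biosynthesis. AT2G44460 (BGLU28), which was left out, rose as well, by a log2 of 1.92 in the authors' deposited table (p = 3.67e-36).

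A glucanase annotated with defence and the 2 amylases had some of the smallest p-values. AT4G16260, a family 17 glucanase whose description names defence against fungi, rose by a log2 of 2.07 in the authors' deposited table (p = 8.73e-230), which put it at place 13 of the 894 higher genes by p. ChiC (AT4G19810), a chitinase of family 18, rose by 1.24 in the authors' deposited table (p = 1.9e-59) and stood only at place 186. The amylases were nearer to AT4G16260 in the list: BAM5 (AT4G15210) had a log2 of 3.97 (p = 1.09e-235, place 12) and AMY1 (AT4G25000) one of 3.82 (p = 1.3e-192, place 27) in the authors' deposited table. BAM5 is a beta-amylase found outside the chloroplast, and AMY1 is a secreted alpha-amylase, so neither is an enzyme of wall polymers.

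The remaining members with the glycoside hydrolase core were a mannanase and a beta-galactosidase, kinds that act on wall polysaccharides. MAN1 (AT1G02310), of the family of endo-mannanases, had a log2 of 1.15 and the weakest p-value of the 31 genes in the authors' deposited table, 1.15e-06. BGAL4 (AT5G56870), a beta-galactosidase, had a log2 of 1.12 in the authors' deposited table (p = 4.09e-68). Setting aside the 2 amylases and 3 lectins left 26 genes, 18 higher and 8 lower (69.2% higher), near the 66.9% of all listed genes. These 26 are not wall enzymes alone, since they still hold the beta-glucosidases, ChiC and AT4G16260.

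**Figure D2:**
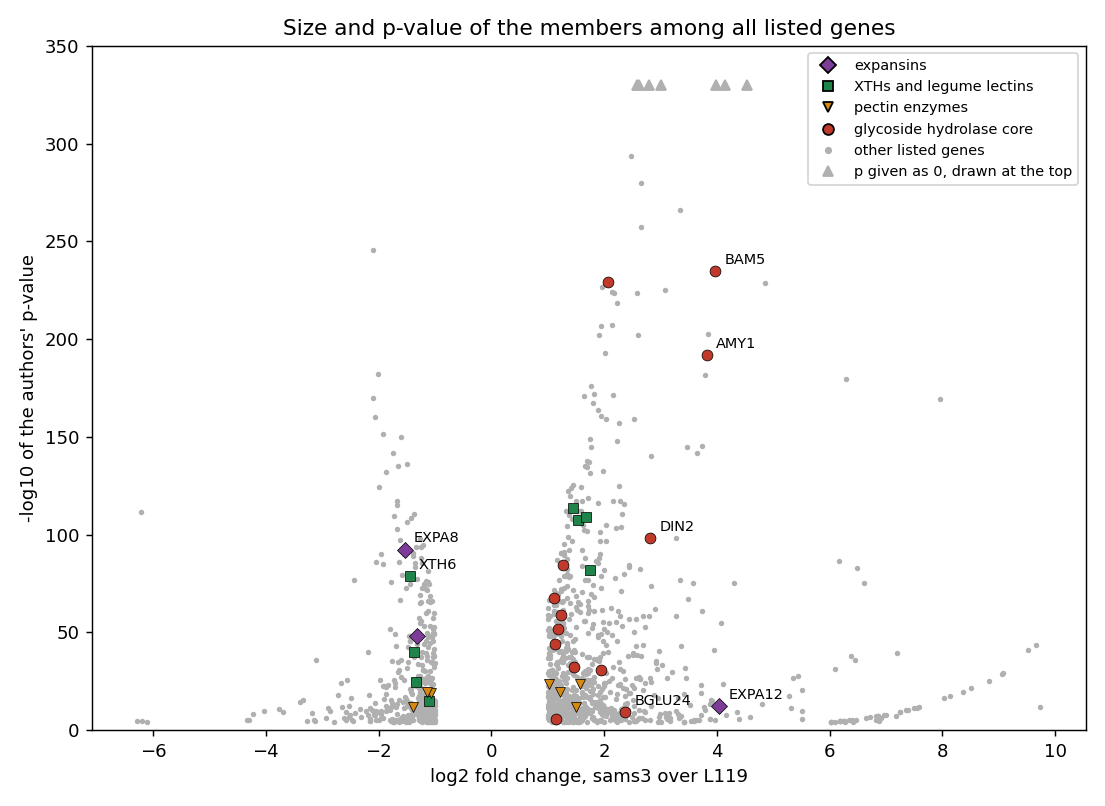
Log2 fold change, sams3 over L119, against -log10 of the authors' p-value for all 1336 listed genes (grey) and the 31 members (symbols by kind); genes whose p-value is given as 0 are triangles at the top. BAM5 and AMY1 combine large rises with small p-values, while EXPA12, at a log2 of 4.04, and BGLU24, at 2.38, lie near the foot of the plot.

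Close relatives were compared by direction. Each deposited description names the protein most similar to its own, and for 10 of 31 members (32.3%) that protein was listed too, against 23.5% of all listed genes with such a match. In 8 of the 10 both genes had the same direction and in 2 the opposite one, where 92.6% of such pairs agreed in direction over all listed genes. Since 3 of the pairs are counted from both sides, the 10 members make 7 distinct pairs, 5 in the same direction and 2 in opposite ones. AT1G10640 and AT1G60590, which are each other's best match, fell together, and AT3G26610, whose best match is AT1G60590, fell as well. BGLU45 and BGLU46, 3 loci apart in gene order, rose together, as did the lectins AT3G15356 and AT3G16530. The 2 exceptions were XTH25 (log2 -1.33), whose best match XTR6 was at 1.54, and the lectin AT5G03350 (-1.37), whose best match AT3G16530 was at 1.68 in the authors' deposited table. The sources used here do not say how reads shared by similar copies were counted, so single values within such pairs are uncertain.

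**Figure D3:**
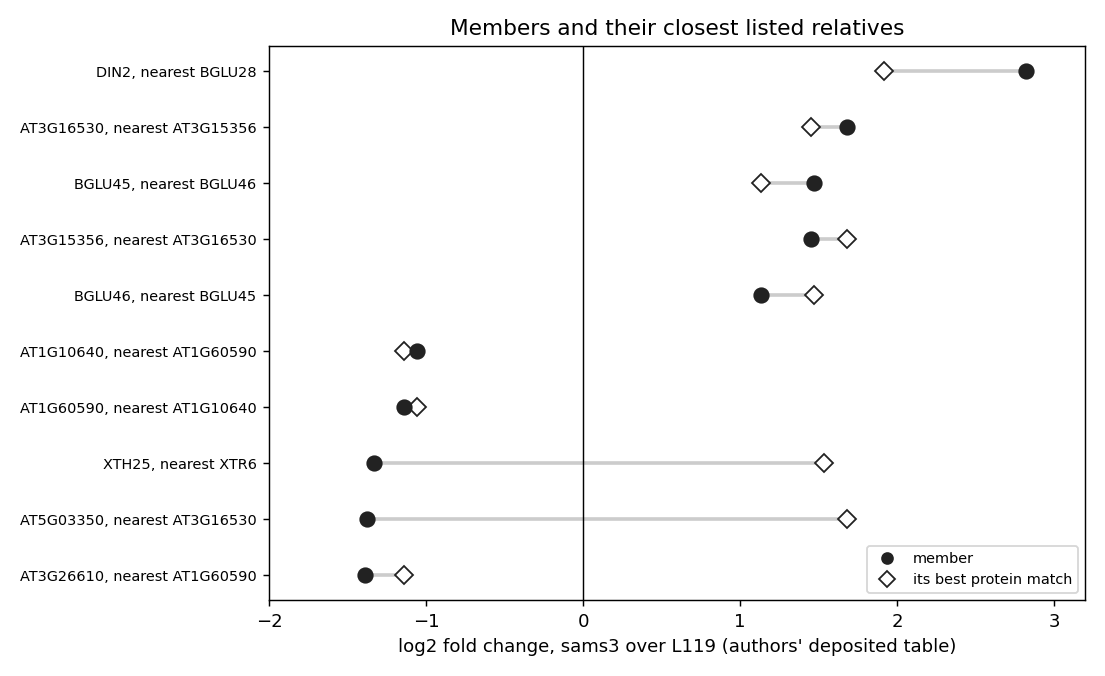
Log2 fold change, sams3 over L119, of the 10 members whose best protein match is also listed (filled circles) and of that match (open diamonds), joined by a line. In 8 rows both symbols lie on the same side of 0, and in the rows of XTH25 and AT5G03350 they lie on opposite sides.

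The annotated place of the proteins followed the kinds. Of 29 members with a known location in their description, 17 (58.6%) were placed in the cell wall, the apoplast or the extracellular region, against 9.58% of the 626 listed genes with a known location. A high share is built in, since domains of wall proteins in the same descriptions chose the members, and the 626 genes include them. The share of members with such a place was 3 of 3 for expansins, 7 of 8 for XTHs and lectins, 3 of 5 for pectin enzymes and 4 of 13 for the glycoside hydrolase core. It was 12 of 22 for higher members and 5 of 7 for lower ones. Of the 13 glycoside hydrolases, the 4 with such a place were AMY1, AT4G16260, ChiC and BGLU44. A growth term stood in the descriptions of 3 of 9 lower members (EXPA8, EXPA11 and XTH33) and of 1 of 22 higher members (EXPA12). Apart from XTH33 these are simply the expansins, and the share of growth terms over all listed genes is not given here. Such terms are annotation and no measurement in these seedlings.

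Members seldom lay within 5 loci of one another, and wider windows were not examined. Another listed gene was found within 5 loci of 10 members (32.3%), against 42.2% of all listed genes, and BGLU45 and BGLU46 were the single case of 2 members within that distance. Beside them stands GPT2, a glucose phosphate transporter gene, at a log2 of 3.35 in the authors' deposited table. BGLU17 lies 3 loci from the BGLU28 gene. XTH33 is next to PUB18, a ubiquitin ligase gene with a log2 of -1.60 in the authors' deposited table, and thus of the same sign, yet AT1G10585, 4 loci away, was at 2.00 and AT1G10586, 5 loci away, at 6.82 (p = 4.05e-06) in the authors' deposited table.

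Most genes of the wider wall machinery were in neither list. Gene names of 14 wall families, taken from symbols and synonyms in the reference table, gave 390 protein-coding genes, of which 23 were higher and 9 lower, or 8.21% listed. Over all 27444 protein-coding loci of that reference, 4.70% were listed, 3.12% as higher and 1.58% as lower. That is a count against reference loci and not against the genes the authors tested, which were not known, and 17 of the 32 listed genes are members. A gene in neither list is not thereby shown to be unchanged.

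By family, beta-glucosidases had 8 higher and 0 lower of 49 (16.3% listed), BGLU28 included. For XTHs it was 2 higher and 3 lower of 33, and for expansins 1 higher and 2 lower of 35. Wall sensors, which are receptor kinases that bind wall components or monitor growth, had 2 higher and 1 lower of 19 (15.8%): WAKL10 at a log2 of 2.58, WAKL2 at 1.30 and WAKL4 at -1.46 in the authors' deposited table. Secondary wall genes, which make the lignified wall of vessels and fibres, had 2 higher and 2 lower of 35, all of them laccases. LAC8 was at 2.66 (p = 6.23e-258) and AT5G01050 at 1.71 (p = 1.69e-24) in the authors' deposited table. TT10 was at -2.44 (p = 1.39e-05) and LAC2 at -1.47 (p = 2.33e-08) in the authors' deposited table. TT10 is better known for oxidising flavonoids in the seed coat.

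Among cellulose synthases and their relatives, arabinogalactan proteins, extensins and pectin synthesis genes, the listed share ran between 3.85% for pectin synthesis and 11.1% for extensins, beside the 4.70% of all protein-coding loci. Cellulose synthases and their relatives had 3 higher and 0 lower of 42, which were CSLG2 (2.54), ATCSLA15 (1.49) and CSLD2 (1.29, a gene of root hair growth) in the authors' deposited table. None of the 3 is a CESA gene of the cellulose synthase complex itself. Arabinogalactan proteins had 2 of 50, FLA6 (1.60) and AGP2 (1.27), and extensins 1 of 9, EXT12 (1.13), all higher in the authors' deposited table. Pectin synthesis had 1 of 26, GATL7, at -1.01 in the authors' deposited table. Of 17 named beta-galactosidases BGAL4 was listed, and of 22 genes named as pectin methylesterases or their inhibitors PME12. The other listed pectinesterase, AT2G47550, has no such name in the reference table and is not among the 22. Of 34 RALF growth peptides and 12 callose synthases, 0 were listed. The names searched for glucanases and chitinases found 11 genes, 0 of them listed, and did not take in the listed members AT4G16260 and ChiC, so this 0 does not hold for those enzymes at large.

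**Figure D4:**
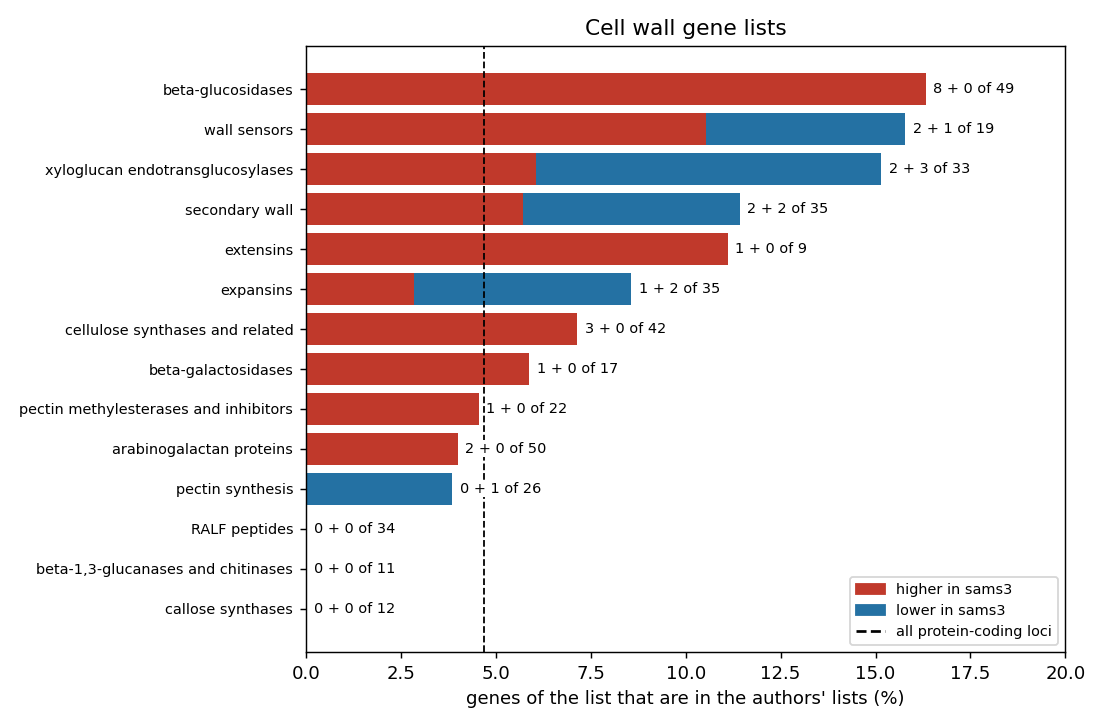
Share of the genes of 14 cell wall families that stand in the authors' lists, as higher (red) or lower (blue) in sams3 than in L119, with the counts (higher + lower of all) beside each bar and a dashed line at 4.70%, the share over all protein-coding loci. Beta-glucosidases (16.3%), wall sensors (15.8%) and XTHs (15.2%) have similar shares, and XTHs and expansins have more lower than higher genes.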

How the data were processed

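The log2 fold changes and p-values are the authors' own, deposited in 1 list of higher and 1 list of lower genes; per the file headers, genes changed at least 2-fold at a p-value under 0.0001. Bismark, Bowtie2, edgeR and the build TAIR10 are named in the submitters' processing notes, without versions or settings. Whether p was adjusted, how reads were counted and which genes were tested are not given in the sources used here. Depth is unknown, and the bisulfite libraries (1 of each genotype) and the lists of transposable elements were not used.

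Members were found by InterPro identifiers in the deposited descriptions; 22 listed genes have no description and could not be members. Kinds of protein followed family domains, in a fixed order. The RefSeq table of TAIR10.1 gave symbols, synonyms and gene order, and held 1335 of the 1336 genes. As its name differs from the authors' build, no coordinates are printed. The list of 42 cellulose synthases and relatives holds CAB3, a chlorophyll-binding gene that the table gives a matching synonym. Genes were named by the largest changes within each kind, which in these small kinds took in all 31, the smallest p-values, neighbours within 5 loci and listed members of the wall families. Members and lists were chosen with earlier results of these data known. No test of a list or between genotypes was run, since no library values were used. The member rule and the kinds of protein were checked on simulated descriptions, and the grouping of neighbours on chosen loci. The reading of locations, processes, plant structures and best matches was not checked in that way. Python 3.11.15, pandas 2.3.3, numpy 2.4.6, scipy 1.17.1 and matplotlib 3.10.9 were used.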

Additional observations from a re-analysis of the deposited data

How the results depend on the processing

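Of 53 alternatives, 37 kept a count within 1.5 times its value, or a share or median within its 95% interval, and 0 reversed a direction. A threshold of 2 on the absolute log2 left 6 higher and 0 lower members (100% higher), and one of 1.5 left 12 higher and 1 lower (92.3%), by construction from fewer genes. Over all listed genes the threshold of 2 left 346, of which 288 were higher and 58 lower, so higher genes prevailed there too. For 1.5 the counts over all listed genes are not given here. Without the glycoside hydrolase core 9 higher members were left and 50.0% were higher. Among wall family genes, 6 higher and 1 lower had an absolute log2 of at least 2, an alternative chosen after seeing the data, as were the removal of amylases and lectins (69.2% higher) and the use of current symbols alone (18 higher, 8 lower). With the 7 kinase proteins put back, all of them higher, 29 members were higher (76.3%). Stricter p-values and neighbours counted once changed no count by more than 2. No paired analysis was possible because no values per library were used, and for that reason leaving out each replicate, another normalization and filters on low values were not run.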

Other observations

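Further wall and carbohydrate families among the listed genes lie outside the 5 domains and were looked up after values had been seen. The largest rises were those of 3 genes with a family 35 (beta-galactosidase) domain but without the glycoside hydrolase core in their descriptions: AT3G01345 had a log2 of 7.97 (p = 2.75e-170), AT4G29200 of 7.19 (p = 4.55e-40) and AT3G24542 of 6.87 (p = 5.18e-08) in the authors' deposited table. BGAL4, the member with that family domain and the core, was at 1.12 in the authors' deposited table. As for EXPA12, without expression levels a low level of those 3 genes in L119 cannot be told apart from a large change. Chitinases of family 19, unrelated in fold to ChiC, were looked up as a group, which took in 4 other listed genes, all higher. These were AT2G43620 at a log2 of 3.84, PR4 at 2.80, CHI at 1.78 and AT2G43590 at 1.15 in the authors' deposited table. PR4 is known as a hevein-like, chitin-binding defence protein rather than as a chitinase of that family, so the group is wider than its name.

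Genes of some other wall families were listed too, and went both ways. A family name is annotation and does not show what a protein acts on. Both listed pectin acetylesterases were higher, AT3G09405 at a log2 of 1.99 and AT5G45280 at 1.34, and so were both listed xyloglucan fucosyltransferase family genes, FUT4 at 1.52 and FUT3 at 1.01, in the authors' deposited table. GH9B5, a family 9 glucanase, was at 1.46 in the authors' deposited table. The Ole e 1 and extensin family had 2 higher genes, AT3G16660 and AT3G16670 (2.23), and 1 lower, AT5G47635 (-2.07), in the authors' deposited table. AT2G43670, with an X8 domain of the kind that binds callose, was at -1.28 in the authors' deposited table.

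The 7 proteins left out for their kinase fold were all higher, with log2 values from 1.23 for HLECRK to 2.97 for AT3G59740 in the authors' deposited table. Each of their descriptions also names a domain of the rule, which does not show that all 7 are lectins. Among the lectins without a kinase domain, AT5G03350 was lower.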
